A study of Mus musculus with 12 samples.

Results

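DARPP-32 and the striatal G protein signalling genes around it are described here across 4 groups of mouse brain arrays. The genes were chosen by name: Ppp1r1b, Arpp21, Arpp19, Rgs9, Gnal, Gng7, Gpr6, Rasd2 and Adora2a. Every probe set annotated with only 1 of these symbols was taken. The annotation used here holds no probe set for Adora2a, which was dropped, so 8 of the 9 named genes were measured, by 19 of the 45037 probe sets tested. Each gene is described by its lead probe set, the one with the highest mean over the 12 arrays, and 18193 genes in all have such a lead. The rule uses names and no measured value, although results of these arrays were known when the genes were proposed.

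Medium spiny neurons, the projection neurons of the striatum, turn dopamine and adenosine signals into changes of cyclic AMP. A stimulatory G protein built from Gnal, the olfactory-type alpha subunit, and Gng7, a gamma subunit, couples their receptors to adenylyl cyclase, and cyclic AMP activates protein kinase A. Protein kinase A phosphorylates DARPP-32, the product of Ppp1r1b, which then inhibits protein phosphatase 1. Arpp21 encodes a second protein kinase A substrate that binds calmodulin when phosphorylated, and the Arpp19 product inhibits protein phosphatase 2A. Gpr6 is a constitutively active receptor of the indirect pathway neurons that raises cyclic AMP. Rgs9 encodes a GTPase-activating protein that shortens G protein signals at dopamine receptors, and Rasd2 encodes Rhes, a small GTPase enriched in striatum.

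The study set inflexible drinkers against light drinkers among outbred male Swiss mice, in the prefrontal cortex and in the whole striatum, with 3 arrays per group. From 6 weeks of age all of these mice chose among 3 bottles, holding water and ethanol solutions of 5 and 10% by volume. Acquisition lasted 10 weeks, ethanol was withdrawn for 2 weeks and returned for 2, and then came 2 weeks in which both ethanol solutions carried the bitter compound quinine at 0.005 g/L, and 1 final week of free choice. These stages add up to 17 weeks, while the series text states a total of 16 weeks and puts the mice at 22 weeks old when it finished. Inflexible drinkers preferred ethanol at every stage, quinine included, and their mean blood ethanol is labelled 113 ± 11.3 mg/dL. Light drinkers drank more water than ethanol, and theirs is labelled 48 ± 13.3 mg/dL; the labels do not say what kind of error these are. Both classes had access to ethanol, and no ethanol-naive group is analysed here, so the class comparison is between 2 groups of drinkers sorted by their own intake. The labels state 1 RNA pool concentration for each group, highest in inflexible and lowest in light prefrontal cortex. They do not say whether the arrays within a group came from separate mice or from repeated hybridisation of a pool, so every SD, SE and p-value below covers the spread between arrays and not the spread between mice.

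All values are the authors' normalised probe set values on a log2 scale, where 1 unit is a doubling. Array medians lay between 3.12 and 3.14, and between 22.4% and 25.0% of probe sets were above log2 4. Array pairs within a group correlated at 0.976 to 0.998 over all probe sets, and no pair was identical. A gene is called where its adjusted p is under 0.05 in a limma fit of 4 group means over 12 arrays, with Benjamini-Hochberg adjustment over all 45037 probe sets. The 9 hybridisation control probe sets, which read labelled RNA added before hybridisation, divided the arrays into 5 with high values (8.08 to 9.07) and 7 with low ones (6.20 to 6.80). The high arrays were 1 of 3 in each group except inflexible striatum, where they were 2 of 3. The labels name no batch, and 27.7% of all probe sets differed between the high and low arrays at an adjusted p under 0.05, so members that followed this split are given with it.

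The tissue labels were checked against marker genes that are not members. The 20 measured markers of medium spiny neurons averaged 5.84 to 5.92 on the inflexible striatal arrays and 5.45 to 5.60 on the light striatal arrays. The same list averaged 4.75 to 4.81 on the inflexible prefrontal arrays and 4.23 to 4.27 on the light prefrontal arrays. Cortical excitatory neuron markers (10 genes) ran the other way between regions, at 4.86 to 5.19 on inflexible and 4.85 to 5.12 on light striatal arrays, against 5.33 to 5.65 on inflexible and 5.57 to 5.81 on light prefrontal arrays. By list mean, markers of both tissues were therefore higher where the labels put them. Single genes did not all follow. Of the 10 cortical markers, limma called 3 lower in striatum in inflexible drinkers, and 4 lower and 1 higher in light drinkers. Neurod6 averaged 6.753 in light striatum against 5.965 in light prefrontal cortex. In bulk tissue, fewer cells of a type and less RNA per cell cannot be told apart, which applies to every member below.

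Promoters are shown for the 3 genes that carry the called class differences, Gpr6 and Rgs9 in prefrontal cortex and Arpp21 in striatum. Of the 9 named genes, 6 had entries in the promoter set used here, which is on RefSeq build GRCm38.p6. A gene absent from this set may still have an annotated start in RefSeq. Each sequence is the 250 bases before the annotated start, read 5′ to 3′ on the strand of the gene, and capitals mark matches on either strand to 5 motifs: the full cyclic AMP response element TGACGTCA, its core TGACG, the TATA box TATAAA, the CCAAT box CCAAT, and the EGR site GCGTGGGCG. The core lies inside the full element, so the 2 overlap.
Gpr6, chr10:41072291-41072540, minus strand: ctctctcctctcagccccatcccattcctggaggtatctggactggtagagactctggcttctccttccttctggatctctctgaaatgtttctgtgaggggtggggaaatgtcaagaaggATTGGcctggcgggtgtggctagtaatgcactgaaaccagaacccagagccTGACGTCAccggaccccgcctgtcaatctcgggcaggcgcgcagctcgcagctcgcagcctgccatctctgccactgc
Rgs9, chr11:109298182-109298431, minus strand: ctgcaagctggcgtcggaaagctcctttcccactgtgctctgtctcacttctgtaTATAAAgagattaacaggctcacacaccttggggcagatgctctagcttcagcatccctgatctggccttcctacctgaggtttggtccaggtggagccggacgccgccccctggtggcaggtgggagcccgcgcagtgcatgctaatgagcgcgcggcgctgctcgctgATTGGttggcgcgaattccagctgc
Arpp21 first start, chr9:112233723-112233972, minus strand: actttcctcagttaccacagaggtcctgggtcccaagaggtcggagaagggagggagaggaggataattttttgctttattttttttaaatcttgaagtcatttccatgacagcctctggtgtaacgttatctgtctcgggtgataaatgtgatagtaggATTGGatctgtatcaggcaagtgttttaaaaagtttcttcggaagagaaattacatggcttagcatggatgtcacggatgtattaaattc
Arpp21 ninth start, chr9:112185950-112186199, minus strand: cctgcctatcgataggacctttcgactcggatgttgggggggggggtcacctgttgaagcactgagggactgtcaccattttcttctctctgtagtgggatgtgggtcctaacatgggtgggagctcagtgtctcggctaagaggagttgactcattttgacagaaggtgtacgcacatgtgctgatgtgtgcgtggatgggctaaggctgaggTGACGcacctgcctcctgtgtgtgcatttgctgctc
The Gpr6 window holds a full cyclic AMP response element 78 bases before the start, an element found in 1.55% of 32851 promoter windows of the same length, and a CCAAT box 129 bases before it. The core alone is common, at 17.8% of windows. In Rgs9 a TATA box stands 195 bases and a CCAAT box 25 bases before the start, and these are in 12.4% and 33.8% of windows. Arpp21 has 9 starts in the set used here, spread over 47773 bases, and first and ninth are counted within this set. The annotated gene reaches further upstream, to position 112236288. Its first window holds a CCAAT box and its ninth the core 36 bases before the start. An EGR site (0.536% of windows) was in none of these 4 windows. A match is a description of letters and not a site shown to be bound.

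Levels by group came first. Every member except Arpp19 had its highest mean in inflexible striatum, then light striatum, inflexible prefrontal cortex and light prefrontal cortex, in that order. Gpr6 averaged 6.06 ± 0.18 in inflexible striatum, 5.42 ± 0.12 in light striatum, 4.17 ± 0.27 in inflexible prefrontal cortex and 3.04 ± 0.07 in light prefrontal cortex (SD, n = 3 arrays each). Rgs9 averaged 6.57 ± 0.20, 6.25 ± 0.01, 5.03 ± 0.16 and 4.13 ± 0.20 in the same 4 groups. For these 2 genes no neighbouring groups in that order overlapped. Ppp1r1b averaged 7.13 ± 0.56 in inflexible striatum, 6.24 ± 0.55 in light striatum, 4.73 ± 0.24 in inflexible prefrontal cortex and 4.03 ± 0.04 in light prefrontal cortex, and only its 2 striatal groups overlapped. Gng7 and Rasd2 had the same order and likewise overlapped only within striatum. Arpp21 was apart at every step except between the 2 prefrontal groups. For Gnal every neighbouring pair overlapped. Arpp19, which is expressed in most tissues, had its highest mean in light prefrontal cortex and its lowest in light striatum, and both inflexible groups overlapped with the highest.

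**Figure D1:**
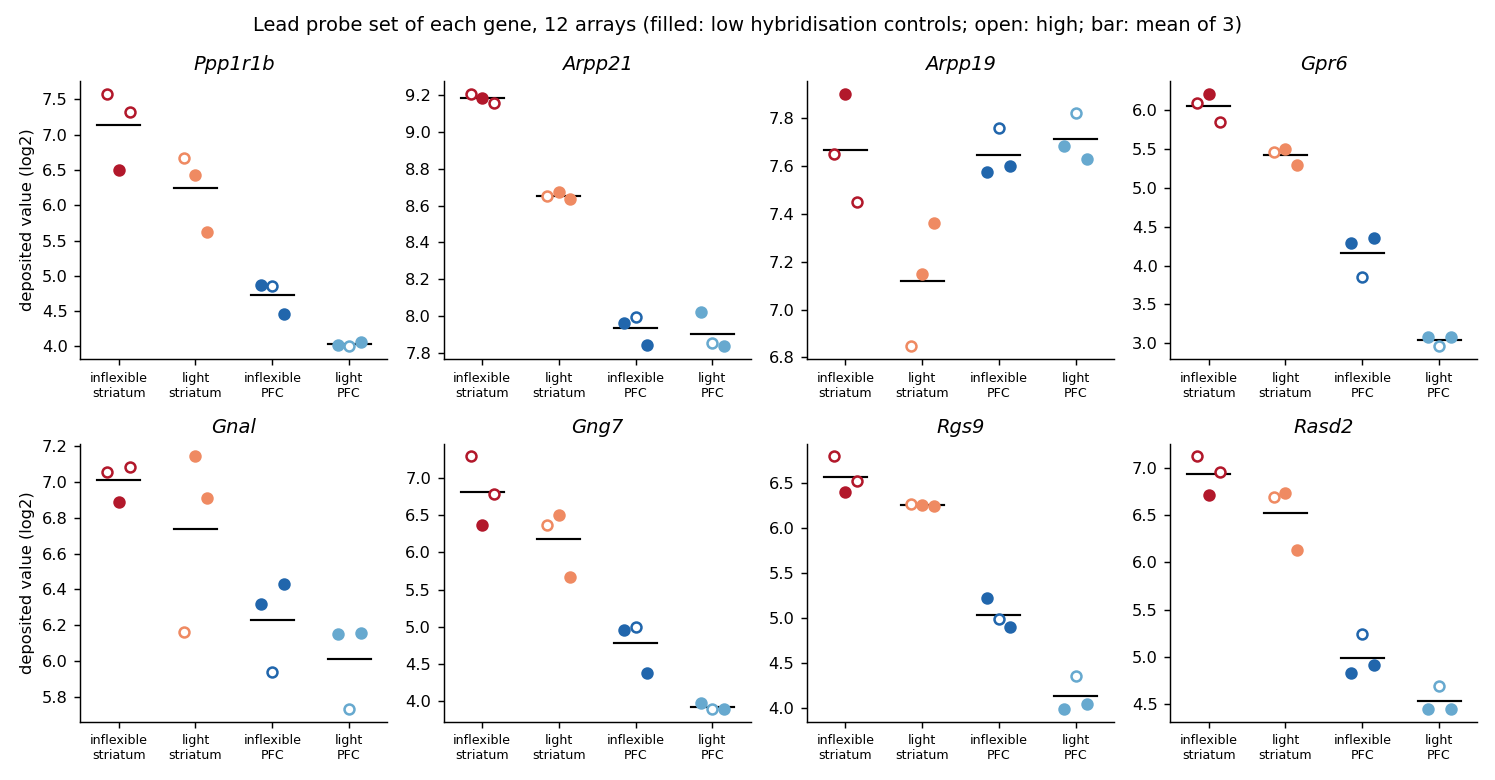
Deposited log2 value of the lead probe set of each of the 8 measured genes (y axis, separate scale per panel) on 12 arrays, in 4 groups of 3 (x axis), with the mean of 3 as a bar. Filled points are arrays with low and open points arrays with high hybridisation controls; all genes but Arpp19 step down by mean from inflexible striatum to light prefrontal cortex.

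The comparison of striatum with prefrontal cortex asks how regional these genes are in each drinking class. Within inflexible drinkers, 6 of the 8 genes were called higher in striatum, where 0.561% of all genes were. Within light drinkers it was again 6 of 8, where 2.18% of all genes were called higher. The 2 comparisons use separate arrays but 1 fit, whose SE pools the spread of all 4 groups. Fitted on the compared groups alone, 4 members were called in inflexible and 6 in light drinkers. Members' median difference was 1.71 in inflexible drinkers and 2.05 in light drinkers, against 0.00 over all genes in both. The 6 genes were Gpr6, Gng7, Rgs9, Rasd2, Ppp1r1b and Arpp21 in both classes.
Gpr6 was higher in striatum by 1.89 ± 0.13 (SE; adjusted p = 0.000335, limma) in inflexible drinkers and by 2.38 ± 0.13 (adjusted p = 1.69e-05) in light drinkers. Ppp1r1b was higher by 2.40 ± 0.31 (adjusted p = 0.00789) and by 2.21 ± 0.31 (adjusted p = 0.00312) in these classes, or 5.29-fold and 4.63-fold. Arpp21 had the smallest regional step of the 6, at 1.25 ± 0.05 in inflexible and 0.75 ± 0.05 in light drinkers (adjusted p = 1.38e-05 and 6.28e-05). With its 5 probe sets averaged, Arpp21 was not called in inflexible drinkers (0.19 ± 0.06, adjusted p = 0.236) and was lower in striatum by 0.29 ± 0.06 in light drinkers (adjusted p = 0.0198). Rasd2 was not called in either class with its probe sets averaged (adjusted p = 0.115 and 0.112). Of the other Arpp21 probe sets, 1419028_at, 1442121_at and 1440429_at were lower in striatum in both classes, and 1419028_at fell by 0.86 ± 0.17 in light drinkers (adjusted p = 0.0197). Probe sets 1419028_at and 1442121_at also followed the control split, as given below.
Gnal was not called by its lead, with differences of 0.78 ± 0.24 (adjusted p = 0.309) and 0.72 ± 0.24 (adjusted p = 0.193). Its second probe set 1439957_at was called in both classes, at 0.82 ± 0.09 (adjusted p = 0.00471) in inflexible drinkers and 0.58 ± 0.09 (adjusted p = 0.00841) in light drinkers. The lead of Gnal read 6.16 on the light striatal array with high controls, against 7.14 and 6.91 on the other light striatal arrays. Arpp19 differed by 0.02 ± 0.14 in inflexible drinkers and by -0.59 ± 0.14 in light drinkers (adjusted p = 0.0538). A second Arpp19 probe set, 1450685_at, fell by 0.71 ± 0.10 in light drinkers (adjusted p = 0.00257). All 3 Arpp19 probe sets were designed on 1 source sequence, so they are not independent readings.

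In prefrontal cortex the drinking classes differed in a receptor and a regulator of G protein signalling. The receptor gene Gpr6 and the G protein regulator Rgs9 rose in inflexible drinkers. These were 2 of 8 members called higher, where 0.577% of all genes were called higher, and none was called lower. For 5 of the 8 (Gpr6, Rgs9, Gng7, Ppp1r1b and Rasd2) all 3 inflexible arrays were above all 3 light arrays, a pattern seen in 7.46% of genes. The members' median difference was 0.58, against 0.00 over all genes.
Gpr6 read 4.29, 3.86 and 4.35 in inflexible prefrontal cortex, against 3.08, 2.96 and 3.07 in light prefrontal cortex. The light values lay below the median of their own arrays, and the groups did not overlap. No fold is given for values this low. The difference was 1.13 ± 0.13 (SE) with an adjusted p of 0.00439 (limma, n = 3 arrays each).
Rgs9 read 5.22, 4.99 and 4.90 in inflexible prefrontal cortex, against 3.99, 4.36 and 4.05 in light prefrontal cortex. Again the groups stood apart, by 0.90 ± 0.12 or 1.87-fold (adjusted p = 0.00998). Its other 2 probe sets were dim, at 2.87 to 3.09 on the inflexible and 2.87 to 3.04 on the light prefrontal arrays, and differed by 0.09 ± 0.17 and 0.02 ± 0.03. With the probe sets of a gene averaged, Rgs9 was not called (0.34 ± 0.09, adjusted p = 0.142). Fitted on the 6 prefrontal arrays alone, neither gene was called (adjusted p = 0.0544 for Gpr6 and 0.0752 for Rgs9). Rgs9 was not called without light prefrontal array 1 (adjusted p = 0.0542) or array 3 (adjusted p = 0.0555). With the replicate number as a block on the 6 prefrontal arrays, Gpr6 was called (adjusted p = 0.0254, limma), Rgs9 was not (adjusted p = 0.0577), and Rasd2 was called higher by 0.46 ± 0.04 (adjusted p = 0.0322). Array 2 was the one with high controls in both prefrontal groups, so this block also takes up the control split.

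The other G protein genes did not pass the test over all 12 arrays. Gng7 read 4.95, 5.00 and 4.39 in inflexible prefrontal cortex, against 3.98, 3.90 and 3.89 in light prefrontal cortex. The groups did not overlap, and the difference of 0.86 ± 0.27 had an adjusted p of 0.339. Gnal, whose product Gng7 partners, read 6.32, 5.94 and 6.43 in inflexible against 6.15, 5.73 and 6.16 in light prefrontal cortex, and overlapped (0.22 ± 0.24, adjusted p = 0.996). Both prefrontal arrays with high controls had the lowest Gnal value of their group. Rasd2 read 4.83, 5.24 and 4.91 in inflexible against 4.45, 4.70 and 4.46 in light prefrontal cortex, and its difference was 0.46 ± 0.18 (adjusted p = 0.517). In each prefrontal group the array with high controls had the highest Rasd2 value.

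Among the phosphoproteins, Ppp1r1b stood apart by class in prefrontal cortex without being called. It read 4.88, 4.86 and 4.45 in inflexible prefrontal cortex, against 4.02, 4.00 and 4.07 in light prefrontal cortex, a difference of 0.70 ± 0.31 (adjusted p = 0.641). The SE pools the spread of all 4 groups, and the SD of Ppp1r1b was 0.56 in inflexible and 0.55 in light striatum, against 0.24 in inflexible and 0.04 in light prefrontal cortex. Arpp19 read 7.58, 7.76 and 7.60 in inflexible against 7.69, 7.82 and 7.63 in light prefrontal cortex, with overlap (-0.07 ± 0.14, adjusted p = 1.0). The Arpp21 lead read 7.96, 8.00 and 7.85 in inflexible against 8.02, 7.85 and 7.84 in light prefrontal cortex, with a difference of 0.03 ± 0.05. Its other 4 probe sets were all lower in inflexible prefrontal cortex, by -0.24 to -0.76, and none of them was called. With a gene's probe sets averaged, Arpp21 fell by 0.42 ± 0.06 in inflexible prefrontal cortex (adjusted p = 0.00851), the opposite sign to its lead.

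**Figure D2:**
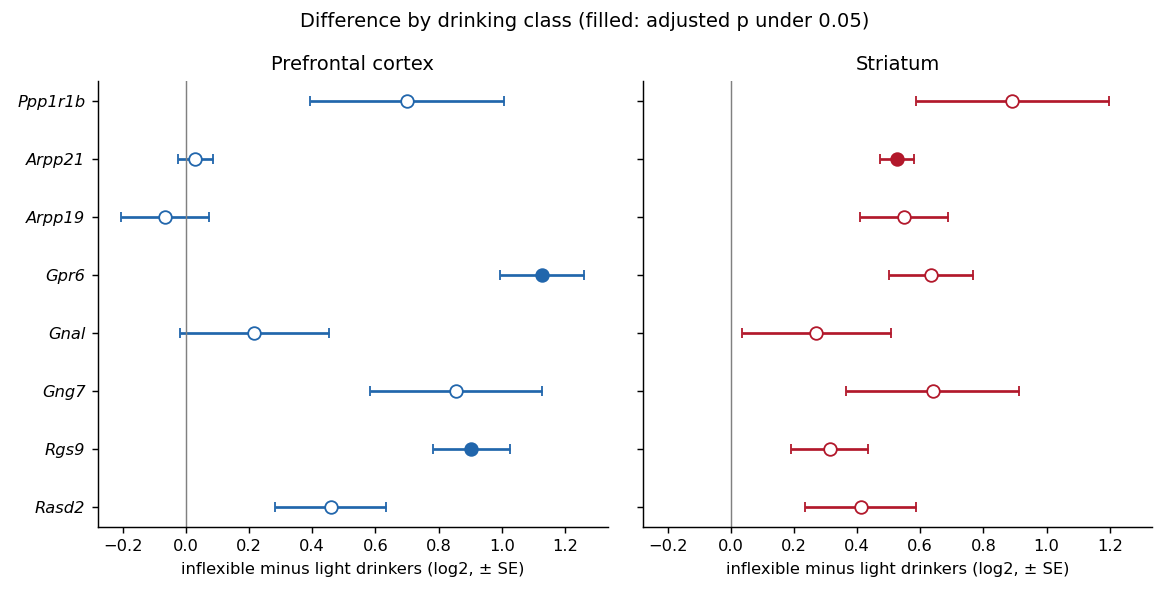
Difference of inflexible minus light drinkers (x axis, log2, with SE from limma) for the lead probe set of 8 genes (rows), in prefrontal cortex (left) and striatum (right), 3 arrays per group. Filled points have an adjusted p under 0.05: Gpr6 (1.13) and Rgs9 (0.90) in prefrontal cortex and Arpp21 (0.53) in striatum; all 8 striatal differences are above 0.

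Markers of several cell types moved with the members in prefrontal cortex. Of 20 medium spiny neuron markers that are not members, 16 had a difference above 0 and 6 were called higher in inflexible drinkers, with a list median of 0.42 and array means of 4.75 to 4.81 in inflexible against 4.23 to 4.27 in light prefrontal cortex. Bcl11b, a transcription factor of these neurons, was higher by 1.04 ± 0.06 (adjusted p = 0.000114), and Penk, the enkephalin precursor, by 1.58 ± 0.13 (adjusted p = 0.000726). The dopamine receptor gene Drd1 was higher by 1.25 ± 0.13 (adjusted p = 0.00236) and the retinoic acid receptor gene Rarb by 0.73 ± 0.09 (adjusted p = 0.00471). Over all genes, 0.577% were called higher in prefrontal cortex and 1.04% in either direction. At an unadjusted p under 0.05, 10 of these 20 markers were higher and 1 was lower. The prefrontal shares of all genes above 0 or at an unadjusted p are not given here. Marker counts of those 2 kinds in prefrontal cortex therefore stand without a comparison. The lower one was Meis2, with a difference of -0.47 ± 0.11 (adjusted p = 0.134, limma). Of the list, 4 markers (Pdyn, Ebf1, Dlx6 and Gpr149) were below log2 4 on all arrays. Among 7 direct pathway markers all were above 0, with a median of 0.17, and only Drd1 was called. Among 5 indirect pathway markers 3 were above 0, with a median of 0.02, and only Penk was called. At an unadjusted p under 0.05, 2 of these 5 were higher and 1, Grik3, was lower (-0.44 ± 0.18).
Outside the medium spiny neurons, 6 of 11 oligodendrocyte markers were called higher in inflexible prefrontal cortex and all 11 had a difference above 0. That list averaged 5.65 to 5.78 on inflexible against 4.65 to 4.85 on light prefrontal arrays, and its leading genes Mobp, Mal, Ermn and Ugt8a differed by 0.78 (Ugt8a) to 2.03 (Mobp). Choroid plexus markers (9 genes) averaged 4.00 to 4.20 on inflexible against 3.18 to 3.19 on light prefrontal arrays. That mean includes Ttr, the only 1 of the 9 called, and the median difference of the list was 0.27. All 9 were above 0, and 6 were higher at an unadjusted p under 0.05. Ttr, which the choroid plexus makes in large amounts, was higher by 6.25 ± 0.23 (adjusted p = 3.88e-06), while Kl, Folr1, Aqp1, Otx2 and Slc4a5 were below log2 4 on all arrays. Cortical excitatory neuron markers had a median difference of -0.17, with only Neurod6 called (0.50 ± 0.09 higher, adjusted p = 0.0344). At an unadjusted p under 0.05, 1 of these 10 was higher and 4 were lower, the upper-layer marker Cux2 by -0.95 ± 0.19 (adjusted p = 0.0578). Single calls were also made for the interneuron marker Npy (lower by 0.59, 1 of 10) and the microglial marker Ctss (lower by 0.36, 1 of 8), and no astrocyte marker of 8 was called (1 higher and 1 lower at an unadjusted p under 0.05). The part of these cell types in the members' prefrontal differences was not tested.

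**Figure D3:**
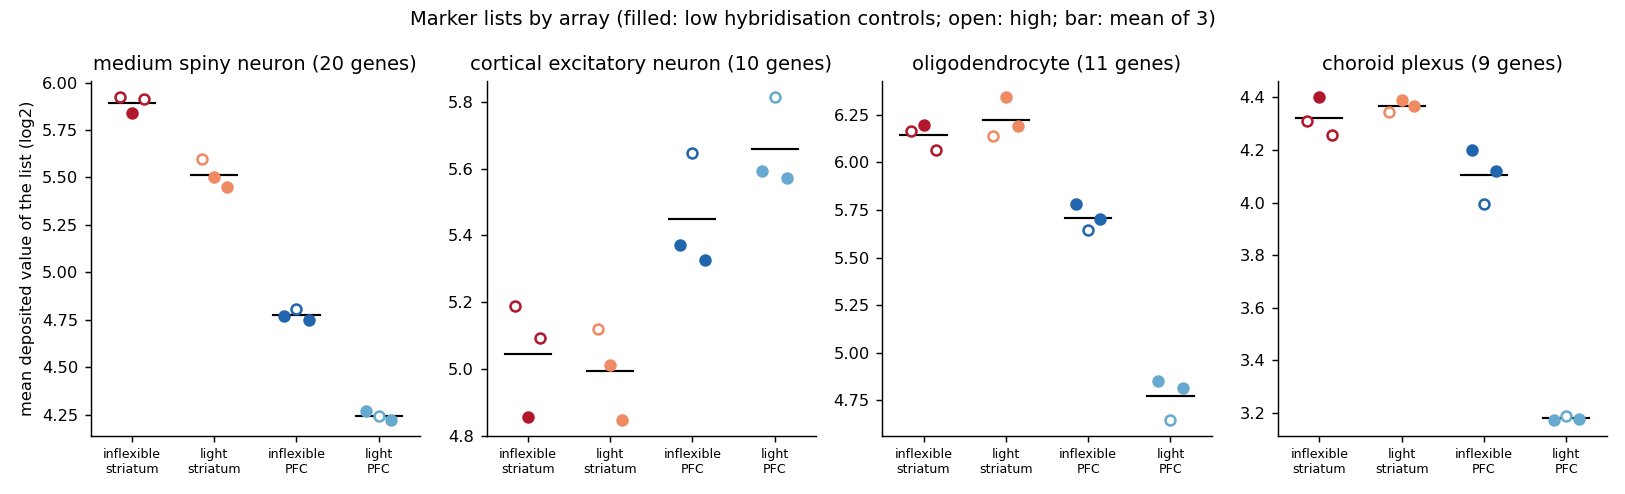
Mean deposited log2 value of 4 marker lists (y axis, separate scale per panel) on each of 12 arrays in 4 groups (x axis), with the mean of 3 arrays as a bar; filled points have low and open points high hybridisation controls. In prefrontal cortex the inflexible arrays are above the light arrays for medium spiny neuron (4.75 to 4.81 against 4.23 to 4.27), oligodendrocyte and choroid plexus markers, and in striatum for medium spiny neuron markers. The choroid plexus mean includes Ttr, the only marker of that list called in prefrontal cortex, where the list median difference is 0.27.

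In striatum, where these genes are at their highest, all 8 members were higher by mean in inflexible drinkers, but the test called only Arpp21. A difference above 0 was seen in 52.4% of all genes. The median member difference was 0.54, against 0.00 over all genes, and the range was 0.27 for Gnal to 0.89 for Ppp1r1b. Of the 8 members, 1 was called higher, where 0.022% of all genes were, and none lower. At an unadjusted p under 0.05, 7 of 8 were higher, where 2.07% of genes were. In 4 of 8 (Arpp21, Gpr6, Rgs9 and Arpp19) all 3 inflexible arrays were above all 3 light arrays, where 4.56% of genes were.
Arpp21 read 9.20, 9.18 and 9.15 in inflexible striatum, against 8.65, 8.67 and 8.63 in light striatum. The SD was 0.03 in inflexible and 0.02 in light striatum, and the groups did not overlap. The difference was 0.53 ± 0.05 (SE), or 1.44-fold (adjusted p = 0.024, limma). On the arrays with low controls it was 0.53, and on those with high controls it was 0.53. The call was lost in 17 of the 23 other ways of processing, among them a fit of the 6 striatal arrays alone (adjusted p = 0.0644), a filter to probe sets with a mean above log2 4 (adjusted p = 0.122) and leaving out any 1 striatal array (adjusted p = 0.0936 to 0.173).

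None of the other 4 probe sets of Arpp21 was called in striatum, and 3 of them had the opposite sign to the lead. Probe set 1451280_at, designed on the same source sequence as the lead, read 6.33, 5.90 and 5.85 in inflexible against 5.13, 5.62 and 6.18 in light striatum, and overlapped (0.38 ± 0.24, adjusted p = 1.0). The remaining 3 came from other source sequences. Probe set 1442121_at read 4.71, 4.52 and 4.62 in inflexible striatum, all below the 5.10, 4.99 and 4.74 in light striatum (-0.33 ± 0.25, adjusted p = 1.0). Probe sets 1419028_at and 1440429_at differed by -0.21 ± 0.17 and -0.08 ± 0.08. Over the mean of all 5 probe sets the striatal difference was 0.06, so the striatal call of Arpp21 belongs to 1 probe set.

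**Figure D4:**
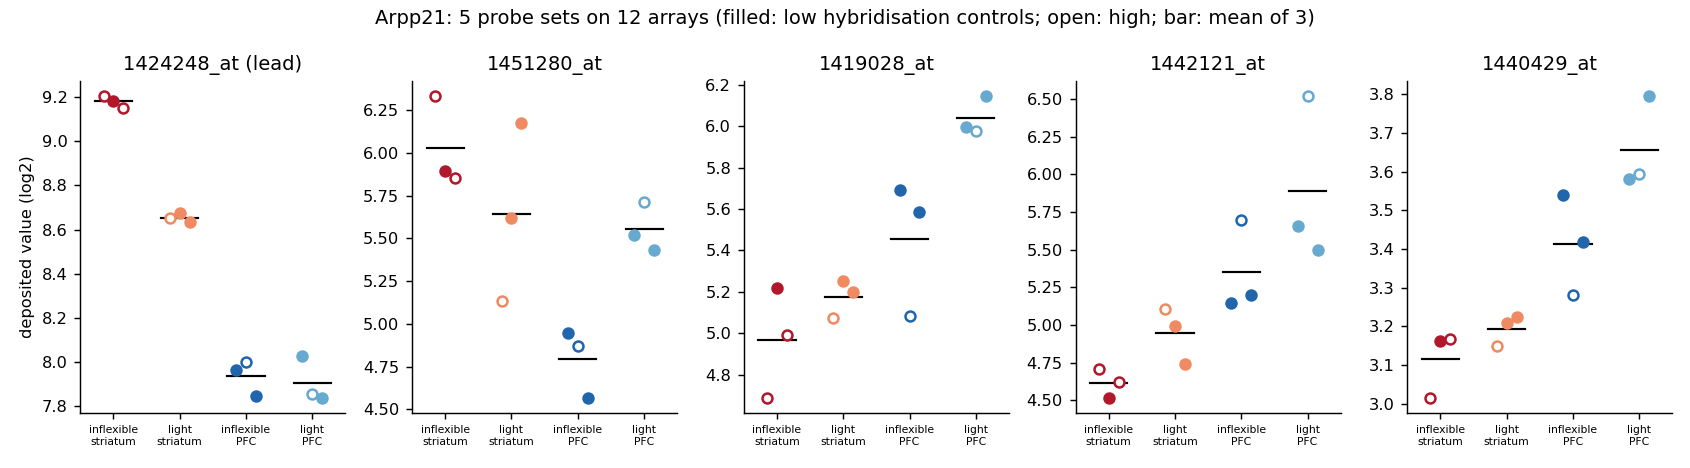
Deposited log2 values of the 5 Arpp21 probe sets (y axis, separate scale per panel) on 12 arrays in 4 groups (x axis), with the mean of 3 arrays as a bar; filled points have low and open points high hybridisation controls. The lead is highest in striatum, at 9.15 to 9.20 in inflexible and 8.63 to 8.67 in light drinkers, while 1419028_at, 1442121_at and 1440429_at are highest by mean in light prefrontal cortex.

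The receptor and G protein members were higher in inflexible striatum by mean without a call. Gpr6 read 6.10, 6.22 and 5.86 in inflexible striatum, against 5.47, 5.51 and 5.29 in light striatum. The groups stood apart by 0.63 ± 0.13 (adjusted p = 0.407), and with the control split as a term in the fit by 0.70 (adjusted p = 0.0872). Rgs9 read 6.79, 6.40 and 6.52 in inflexible against 6.26, 6.25 and 6.25 in light striatum, a difference of 0.31 ± 0.12 (adjusted p = 1.0). Gng7 read 7.29, 6.36 and 6.79 in inflexible against 6.36, 6.50 and 5.66 in light striatum, with overlap, and differed by 0.64 ± 0.27. Rasd2 read 7.12, 6.71 and 6.96 in inflexible against 6.69, 6.73 and 6.14 in light striatum, also with overlap, and differed by 0.41 ± 0.18. Gnal read 7.06, 6.89 and 7.08 in inflexible against 6.16, 7.14 and 6.91 in light striatum (0.27 ± 0.24). All 3 of these last differences had an adjusted p of 1.0. For Gnal the highest array was a light one, and on arrays with low controls its difference was -0.14.

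DARPP-32 itself had the largest mean difference in striatum and a wide spread. Ppp1r1b read 7.58, 6.50 and 7.32 in inflexible striatum, against 6.67, 6.43 and 5.63 in light striatum. The groups overlapped, and the difference of 0.89 ± 0.31 had an adjusted p of 1.0. On the arrays with high controls it was 0.77, and on those with low controls 0.48. Arpp19 read 7.65, 7.90 and 7.45 in inflexible against 6.85, 7.15 and 7.36 in light striatum. Those groups did not overlap, and the difference was 0.55 ± 0.14 (adjusted p = 0.721); its other 2 probe sets differed by 0.43 ± 0.10 and 0.48 ± 0.16. Beside these values, 19 of the 20 medium spiny neuron markers had a striatal difference above 0, with a median of 0.39, 10 of them higher at an unadjusted p under 0.05 and none called. The direct pathway marker Slc35d3 was called (0.94 ± 0.07 higher, adjusted p = 0.00249), 1 of 7 in its list. In that list 6 of 7 were above 0 and 5 were higher at an unadjusted p under 0.05. Eya1 went the other way (-0.23 ± 0.12). Of 5 indirect pathway markers, 4 were above 0, 2 were higher at an unadjusted p under 0.05 and none was called. Interneuron markers had a difference above 0 in 8 of 10 genes, with 3 higher at an unadjusted p under 0.05 and none called; Gad2, which makes GABA in interneurons and medium spiny neurons alike, differed by 0.81 ± 0.13 (adjusted p = 0.193). Of 10 cortical excitatory markers, 1 was higher and 3 were lower at an unadjusted p under 0.05, and none was called. Oligodendrocyte and choroid plexus markers had median striatal differences of -0.09 and -0.06. What these cell type markers contribute to the members' striatal differences was not tested.

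Whether the class difference itself differed between regions was tested as the striatal minus the prefrontal difference. Arpp21 was called, 1 of 8 members, where 0.165% of all genes were called higher and 0.44% in either direction. Its lead differed by 0.50 ± 0.08 more in striatum (adjusted p = 0.0334), from a striatal difference of 0.53 and a prefrontal one of 0.03. The call was kept in 7 of 22 alternatives, and lost, among others, without any 1 striatal array. Rgs9 and Gpr6 had negative values, their class differences being smaller in striatum, at -0.59 ± 0.17 (adjusted p = 0.391) and -0.49 ± 0.19 (adjusted p = 0.722). Arpp19 had a positive one of 0.62 ± 0.20 (adjusted p = 0.503). For Ppp1r1b, Gng7, Gnal and Rasd2 the values lay between -0.22 and 0.19, with an adjusted p of 0.999 each. The calls of Gpr6 and Rgs9 in prefrontal cortex were therefore not shown to be particular to that region.

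Further genes of the same pathway were taken from 5 lists, of which 78 of 88 named genes were measured, 69 of them with a mean above log2 4. In prefrontal cortex 3 were called higher and 3 lower in inflexible drinkers, where 1.04% of all genes were called in either direction. In striatum limma called none of the 78, where 0.022% of all genes were called higher. At an unadjusted p under 0.05, 11 of the 78 were higher, where 2.07% of all genes were, and 1 was lower. The median difference of the 78 was 0.00 in prefrontal cortex and 0.06 in striatum. Over the 23 alternatives the prefrontal count of 6 ran between 0 and 18.
Of 8 receptors, Drd1 rose in inflexible prefrontal cortex, as given above with the medium spiny neuron markers. Drd2, its counterpart in indirect pathway neurons, differed by 0.62 ± 0.15 (adjusted p = 0.137) and the cannabinoid receptor gene Cnr1 by 0.10. Of 20 G protein subunits and regulators, the gamma subunit gene Gng2 rose, by 0.65 ± 0.12 (adjusted p = 0.0426); Rasd1, the relative of Rasd2, differed by 0.50 and Gng3 by -0.45 without a call. Of 17 cyclic AMP and protein kinase A enzymes, Pde10a, a phosphodiesterase abundant in medium spiny neurons, rose by 1.43 ± 0.17 (adjusted p = 0.00489). Pde1b, a calmodulin-dependent phosphodiesterase, differed by 0.63 (adjusted p = 0.305), and Prkar1b, a regulatory subunit of protein kinase A, by -0.57 (adjusted p = 0.279).
None of 22 phosphatases and kinases acting on the DARPP-32 and ARPP proteins was called by limma in any of the 5 comparisons. The share of all genes called higher was 0.022% to 2.18% in these, so no higher call among 22 is near that share. For lower calls no such share is given here. By class, at an unadjusted p under 0.05, there were 1 higher and 1 lower in prefrontal cortex and 1 higher in striatum. By region there were 3 higher in striatum in inflexible drinkers, and 5 higher and 2 lower in light drinkers. At that level a share of all genes is given here only for the class comparison in striatum (2.07% higher). The other counts therefore stand without a comparison. The largest prefrontal differences by class among the 22 were 0.42 for the calcineurin subunit gene Ppp3ca (adjusted p = 0.841), -0.33 for the casein kinase gene Csnk1e (adjusted p = 0.428) and 0.26 for Ppp2r2a, a regulatory subunit of protein phosphatase 2A.
The 3 genes that fell were all activity-regulated genes among 11 downstream targets, where 1.04% of all genes were called in either direction. Fosb, another activity-regulated gene of that list, was neither higher nor lower at an unadjusted p under 0.05. Arc fell by 1.05 ± 0.13 (adjusted p = 0.00616), Egr1 by 0.66 ± 0.08 (adjusted p = 0.00465) and Fos by 0.60 ± 0.11 (adjusted p = 0.0442) in inflexible prefrontal cortex. Egr1 averaged 8.34 ± 0.10 in inflexible against 9.00 ± 0.02 in light prefrontal cortex (SD, n = 3 arrays each). For Egr1 and Arc the class difference also differed between regions, by 1.07 ± 0.11 (adjusted p = 0.00524) and 1.14 ± 0.19 (adjusted p = 0.0458). The number of pathway genes called for that difference, 2 here, ran between 0 and 7 over 22 alternatives.
By region, pathway genes were called in both directions. In inflexible drinkers 9 of 78 genes were called higher in striatum, where 0.561% of all genes were, and 2 lower. In light drinkers 11 were called higher, where 2.18% of all genes were, and 7 lower. The share of all genes called lower is not given here, so the lower counts stand without a comparison. Drd1, Drd2, Adcy5, Pde10a, Pde1b, Pde7b, Rgs2 and Rasgrp2 were called higher in striatum in both classes, and Rgs4 and Pde4d lower in both. Adcy5, the adenylyl cyclase that the olfactory-type G protein activates in striatum, was higher by 1.69 ± 0.18 (adjusted p = 0.00332) in inflexible and by 1.63 ± 0.18 (adjusted p = 0.000849) in light drinkers.

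The split in hybridisation controls touched some members more than others. With group means held in the fit, the second Rasd2 probe set 1427343_at was higher on the high arrays by 1.88 ± 0.23 (adjusted p = 0.000677). It read 6.82, 4.25 and 6.62 in inflexible striatum, against 6.34, 4.25 and 3.69 in light striatum, so the 3 striatal arrays with high controls were the 3 high values. The Rasd2 lead, designed on the same source sequence, was higher on the high arrays by 0.30 ± 0.09 (adjusted p = 0.042). Ppp1r1b was higher there by 0.44 ± 0.19 (adjusted p = 0.111) and Gng7 by 0.31 ± 0.19 (adjusted p = 0.225), while the Gnal lead was lower by 0.39 ± 0.13 (adjusted p = 0.0561). Of the 8 leads only Rasd2 passed, where 53.1% of genes with a mean above log2 4 passed in either direction. Other probe sets of members passed too. Arpp21 1442121_at was higher on the high arrays by 0.46 ± 0.11 (adjusted p = 0.0173, limma). Arpp21 1419028_at differed by -0.30 ± 0.08 (adjusted p = 0.0273) and Gnal 1439957_at by -0.16 ± 0.05 (adjusted p = 0.0447). Because inflexible striatum holds 2 high arrays and light striatum 1, the striatal differences were refitted with the split as a term. Ppp1r1b then differed by 0.75, Gng7 by 0.54, Rasd2 by 0.31, Gnal by 0.40 and Rgs9 by 0.27, none of them called. The prefrontal groups hold 1 high array each. There the difference of Gpr6 was 1.13 with the term (adjusted p = 0.00123), 1.24 on low arrays and 0.90 on high arrays, and that of Rgs9 was 0.90 (adjusted p = 0.00439), 1.04 and 0.63.

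**Figure D5:**
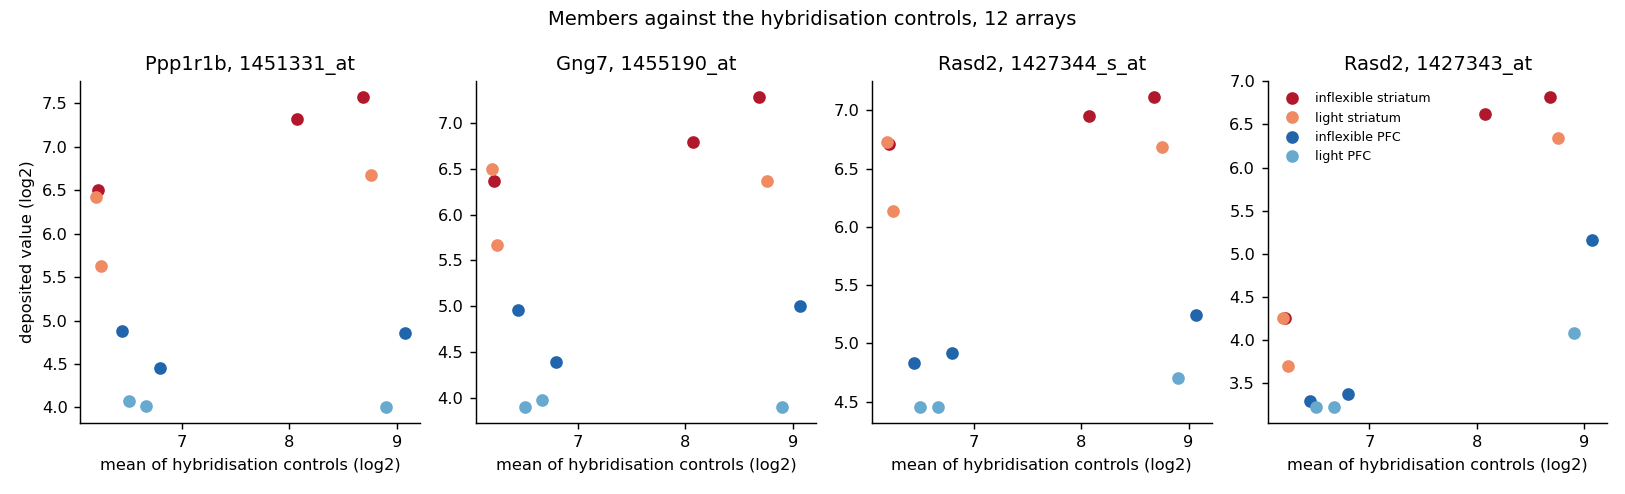
Deposited log2 value of Ppp1r1b, Gng7 and both Rasd2 probe sets (y axis, separate scale per panel) against the mean of the 9 hybridisation control probe sets (x axis, log2) on 12 arrays, coloured by group. In striatum the second Rasd2 probe set reads 6.34 to 6.82 on the 3 arrays with high controls and 3.69 to 4.25 on the 3 with low controls, whichever the drinking class.

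Genes whose values ran most like each member over the 12 arrays were sought among 6585 genes with a mean above log2 4. These correlations describe 4 groups that share region and class steps, and carry no p. Pde1b ran closest to Ppp1r1b (r = 0.989), to Gng7 (r = 0.991) and to Rasd2 (r = 0.985). Lingo3 and Necab2 came next for both Ppp1r1b (0.981 and 0.976) and Gng7 (0.982 and 0.977), and Adcy5 and Pcdh17 for Rasd2 (0.979 and 0.974). Rgs9 ran with Drd2 (0.989), Penk (0.979) and Lrrc10b (0.976), and Gpr6 with Lmo2 (0.989), Penk (0.988) and Lrrc10b (0.983). Both of those members therefore had Penk and Lrrc10b among their closest 3. Arpp21 ran with Kazn (0.973), Necab2 (0.968) and Mpped2 (0.954), and Gnal with Bcr (0.952), Pcp4l1 (0.949) and Sowaha (0.939). Arpp19 had the weakest partners, Nanos1 (0.898), A330076H08Rik (0.882) and Dennd4b (0.870).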

How the data were processed

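Total RNA was hybridised to 12 one-colour oligonucleotide arrays, 3 for each of 4 groups taken from the sample titles. The authors deposited normalised values, used here as log2: RMA, which corrects background, normalises and summarises probes, and the affy package, both without version, are the tools given per the submitters' processing notes. The base of the logarithm was read from the values (2.76 to 11.56). The array model and genome build are not given in the sources used here. Probe sets were named through the platform annotation: of 45037 tested, 34945 had 1 symbol, 932 several and 9160 none, and 64 control probe sets were left out.

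Groups were compared in R 4.3.3 with limma 3.58.1 (functions lmFit and eBayes on 4 group means, two-sided, Benjamini-Hochberg adjustment over all probe sets, called at an adjusted p under 0.05), which was tested on simulated data. Values on arrays give no counting depth, and 3 arrays per group limit the precision. Same-numbered arrays deviated together in the 2 prefrontal groups, in 3 of 3 pairs (r = 0.622 to 0.849), and not throughout in the other pairs of groups (-0.769 to 0.602). Inflexible prefrontal array 1 ran closer to a light prefrontal array of another number than to its own (r = 0.741). Of the 12 pairs checked over all groups, 4 were best with their own number. No label gives a source for a pairing by number, so the paired prefrontal fit is given beside the unpaired one. In both prefrontal groups array 2 was the one with high controls. A pairing of arrays and the control split therefore cannot be told apart there. The alternatives were the fit of the compared groups alone, the control split as a term or by subset, a replicate block, a filter at log2 4, averaged probe sets, quantile normalisation, centring, array weights, an eBayes trend, each array left out, and, chosen after seeing the data, each other probe set of a gene and the replicate block on the 6 prefrontal arrays. The members and lists were chosen with earlier results of these data known. The rule named all members and each pathway gene called by class or in the regional difference of the class effect. For a list with fewer than 3 calls it named the 3 largest prefrontal differences. It also named up to 4 called genes of each cell type list, and the 3 closest genes to each member by Pearson r. Slc35d3, other cell type markers without a prefrontal call, Fosb and the pathway genes named by region fell outside this rule. They were chosen after their values were seen.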

Additional observations from a re-analysis of the deposited data

Results flagged for a closer look

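Among the members and the pathway genes, the class effect itself differed between striatum and prefrontal cortex for 3 genes by the test of that difference, which called 80 genes in all (0.44%). Arpp21 differed by 0.497 (log2, striatal minus prefrontal; adjusted p = 0.0334, limma), its striatal call being made by its lead probe set only. Egr1 differed by 1.069 (adjusted p = 0.00524) and Arc by 1.144 (adjusted p = 0.0458), both being lower in inflexible than in light prefrontal cortex. Groups of 3 arrays are too small for a test of single outlying arrays.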

How the results depend on the processing

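Counts of members called are given here for 23 alternatives (22 for the regional difference of the class effect). In prefrontal cortex 2 members were called, 0 with the compared groups alone or high-control arrays only, and 1 to 2 with 1 array left out; with averaged probe sets the 2 were Gpr6, higher, and Arpp21, lower. In striatum 1 was called. It was 0 with the compared groups alone, low-control or high-control arrays only, the filter, averaged probe sets, quantile normalisation, array weights and the trend, and 0 to 1 with 1 array left out. The regional difference of the class effect called 1, and 0 with low-control or high-control arrays only, the filter, quantile normalisation and the trend, and 0 to 1 with 1 array left out. Striatum against prefrontal cortex called 6 in both classes. In inflexible drinkers it called 0 to 7, with 3 on low-control arrays, 0 on high-control arrays, 4 with the compared groups alone and 5 with averaged probe sets; in light drinkers 0 (high-control arrays) to 8. The control subsets hold fewer arrays. Signal over background limits the differences of dim values, such as Gpr6 in light prefrontal cortex and the dimmer Rgs9 probe sets.

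With the replicate block over 12 arrays, 0 members were called for the regional difference of the class effect, and 2, 1, 6 and 6 in the other comparisons. On the prefrontal arrays alone, a block chosen after seeing the data called 2, Gpr6 and Rasd2, and 899 probe sets in all, against 372 without it over 12 arrays. That block also takes up the control split.

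Some values changed sign, and the cause was not tested; a range is over arrays left out 1 at a time. Arpp21 in prefrontal cortex became -0.027 (low-control arrays), -0.42 (averaged probe sets, adjusted p = 0.00851), -0.006 (quantile) and -0.02 (weights), range -0.004 to 0.09. In striatum its probe sets 1419028_at, 1440429_at and 1442121_at gave -0.21, -0.078 and -0.328, and averaging gave -0.287 (adjusted p = 0.0198) for light striatum against light prefrontal cortex. Gnal in striatum became -0.138 (low-control), range -0.018 (without light striatal array 1) to 0.473. For the regional difference of the class effect, Ppp1r1b became -0.145 (low-control) and -0.082 (high-control), range -0.117 to 0.506; Gnal became -0.358 (low-control) and -0.196 (weights), range -0.233 to 0.257; Gng7 became 0.025 (weights), range -0.473 to 0.008; and Rasd2 became 0.327 (averaged) and 0.02 (weights), range -0.239 to 0.076. Arpp19 in inflexible striatum against inflexible prefrontal cortex became -0.209 (high-control) and -0.016 (averaged), range -0.095 to 0.132.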
